A study of Mus musculus with 8 samples.

Results

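The genes described here encode the subunits of integrins and laminins, and they were measured in neurons of the mouse dorsal root ganglion (DRG) from 2 Cre lines. Members were all rows of the deposited count table whose symbol starts with Itga or Itgb followed by a digit or by d, e, l, m, v or x, or with Lama, Lamb or Lamc followed by a digit. Integrin-binding proteins such as Itgb1bp1 were left out. This gave 39 of 43372 genes, 28 of integrins and 11 of laminins. Itgbl1 and Itgb2l match the rule; Itgbl1 encodes a secreted protein related to the integrin beta chains and is no receptor subunit.

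The Sst libraries came from Sst-IRES-Cre mice (Ssttm2.1(cre)Zjh/J), in which the locus of somatostatin drives Cre recombinase. The Trpv1 libraries came from Trpv1-IRES-Cre mice (Trpv1tm1(cre)Bbm/J), in which the locus of the heat- and capsaicin-gated channel drives it. All mice were C57Bl/6 and carried a virus given into the abdomen at postnatal day 2, either AAV9-CAG-FLEX-eGFP-WPRE or its tdTomato form AAV9-CAG-FLEX-tdTomato-WPRE, whose fluorescent protein is made once Cre has acted. Ganglia of mice of both sexes were dissociated at 3 to 5 weeks, and 150 to 250 labelled cells from a mouse were collected by hand. There were 4 libraries per genotype, called independent in the labels, and p-values measure the spread between these libraries. Neither group was untreated or without Cre, and the sources used here do not say which reporter each library carried. The groups are defined by the labels: Sst and Trpv1 transcripts were counted in both populations, and neither gene passed the test (edgeR, p adjusted by Benjamini-Hochberg over all genes tested, 0.0753 for Sst and 0.109 for Trpv1).

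Laminins are the cross-shaped proteins of basement membranes, each built of an alpha, a beta and a gamma chain. Integrins are cell surface receptors built of an alpha and a beta chain, and the pairing decides what they bind: laminin, collagen, proteins with the RGD motif (arginine, glycine, aspartate) such as fibronectin and vitronectin, or other cells. In ganglia, laminin lies in the basement membrane around satellite glia and Schwann cells, and sensory axons grow on laminin through beta 1 integrins. In pooled cells, fewer cells that make a transcript and less of it per cell cannot be told apart.

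Total counts ran from 7419027 to 12153109 per library, and the 39 members held 3431 to 4973 counts of each. Xist, a transcript of female cells, was counted in all 4 Sst libraries and in Trpv1 replicates 3 and 4. Trpv1 replicates 1 and 2 had 0 counts. Libraries without Xist were thus found in the Trpv1 group only, so its presence was not balanced between the genotypes. Pituitary hormone transcripts (Gh, Prl) stood out in Sst replicate 2 and Trpv1 replicates 1, 2 and 3, with no more than 1 count of each in the remaining 4 libraries. Values are CPM, counts scaled to a common library size after TMM correction. Levels of different genes are compared as CPM per kilobase of merged exons.

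Of the 39 members 20 passed the filter on low counts and were tested. The integrin gene Itga9 was higher in the Sst libraries. Lower there were the integrin gene Itgb8 and the laminin gene Lamb1, and the other 17 did not pass. That is 3 of 20 members (15%), against 751 of 11828 genes tested (6.35%). By direction it is 1 higher (5%, against 3.04% of all genes) and 2 lower (10%, against 3.31%). The median log2 fold change, Sst over Trpv1, was −0.15 over the 20 members and 0.01 over all genes. At an unadjusted p under 0.05 stood 8 of the 20 members, against 20.5% of all genes. All 3 calls were lost in some of the alternative analyses, as given beside each gene.

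**Figure D1:**
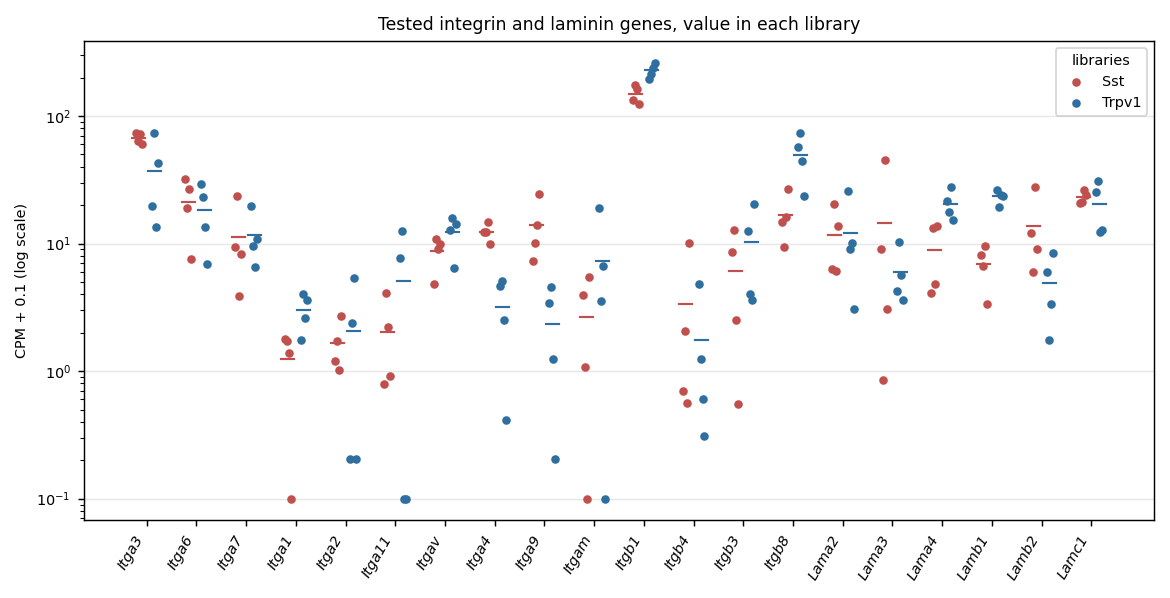
CPM of the 20 tested members in each of the 8 libraries, with 0.1 added and on a log axis; points are libraries, short lines are group means (4 libraries each), and genes are ordered by role. Itgb1, also the most abundant member per kilobase, stands at the top in each library, and the values of Itga4, Itga9, Itgb1, Lama4 and Lamb1 do not overlap between the groups.

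**Figure D2:**
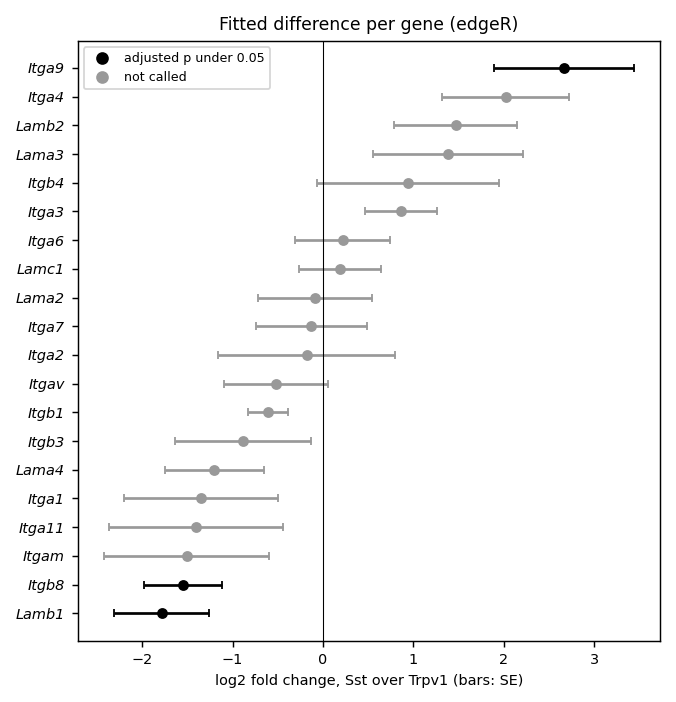
Fitted log2 fold change of the 20 tested members, Sst over Trpv1, with bars of 1 SE on each side; black points passed an adjusted p of 0.05 in edgeR. Itga9 lies farthest to the right at 2.66 and Lamb1 farthest to the left at −1.78.

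Among the laminin beta chains, Lamb1 was lower in the Sst libraries, and Lamb2 did not pass the test. Lamb1 encodes the beta 1 chain, found in laminins of many tissues, and Lamb2 the beta 2 chain, known from synaptic and perineurial basement membranes. Lamb1 (GRCm38 chromosome 12, 31265234 to 31329644, plus strand) was measured at 8.03, 6.62, 9.41 and 3.25 CPM in Sst replicates 1 to 4. It stood at 26.4, 19.3, 24.1 and 23.5 CPM in Trpv1 replicates 1 to 4. Every Trpv1 library was above every Sst library, with means of 6.83 ± 2.64 and 23.3 ± 2.93 CPM (SD, n = 4 each). Lamb1 was thus 3.44-fold higher in Trpv1 libraries (log2 fold change −1.78, SE 0.526, adjusted p = 0.0427 in edgeR). The values of 5 of 20 tested members (25%), Lamb1 among them, did not overlap between the groups, against 11.1% of all genes tested; by direction 2 were higher in Sst (5.43% of all genes) and 3 lower (5.71%). The direction of Lamb1 held in all 19 alternatives, with log2 fold changes from −1.97 to −1.53, but the call was lost in 14 of them. Among those were the 8 fits that each left out 1 library, Sst replicates 1, 2, 3 and 4 and Trpv1 replicates 1, 2, 3 and 4 in turn (edgeR adjusted p from 0.0617 to 0.103).

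Lamb2 (chromosome 9, 108479736 to 108490530, plus strand) was measured at 12.0, 5.86, 27.5 and 8.94 CPM in the Sst libraries. It stood at 5.87, 1.65, 3.28 and 8.35 CPM in the Trpv1 libraries. The groups overlapped, Trpv1 replicates 1 and 4 lying above Sst replicate 2, and Lamb2 did not pass (log2 fold change 1.47, SE 0.684, adjusted p = 0.224 in edgeR). Per kilobase, the ratio of Lamb2 to Lamb1 was 2.44, 1.44, 4.76 and 4.48 in Sst replicates 1 to 4. The ratio was 0.363, 0.139, 0.222 and 0.580 in Trpv1 replicates 1 to 4. By merged exon length Lamb2 was thus the larger of the pair in 4 of 4 Sst libraries and Lamb1 in 4 of 4 Trpv1 libraries. By the length of the longest transcript the ratio was 1.53, 0.910, 3.00 and 2.83 in Sst replicates 1 to 4, so that Lamb1 was the larger in Sst replicate 2, and 0.0879 to 0.366 in the Trpv1 libraries. Lamb1 took 26.3% ± 11.0 of the summed beta chain level (CPM per kilobase) in the Sst and 75.2% ± 12.6 in the Trpv1 libraries. This ratio was chosen after its values were seen and was not tested. Lamb3, a beta chain of skin laminin, held 3 counts in the Sst and 20 in the Trpv1 group, 19 of them in replicate 4, and was not tested.

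The sequences upstream of Lamb1 and Lamb2 are shown because Lamb1 is the laminin gene that was called and Lamb2 is the chain it is set beside. They are from RefSeq (GRCm38.p6, plus strand, 5′ to 3′), cut where the first annotated base of the gene in GENCODE M21 begins, and capitals mark the GC box GGGCGG on either strand (CCGCCC on the strand shown). Lamb1 lies at chr12:31265043-31265233 (191 bases) and Lamb2 at chr9:108479612-108479735 (124 bases). RefSeq windows were held for 25 of the 39 members. A window has 300 bases, and the stretches shown are the first 191 and 124 bases of theirs. The rest of each window was not searched, and the 2 stretches end at different places in their windows.
Lamb1: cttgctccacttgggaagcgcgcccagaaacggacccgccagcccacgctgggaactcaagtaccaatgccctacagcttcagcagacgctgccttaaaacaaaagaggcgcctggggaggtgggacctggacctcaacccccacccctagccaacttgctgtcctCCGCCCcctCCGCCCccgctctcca
Lamb2: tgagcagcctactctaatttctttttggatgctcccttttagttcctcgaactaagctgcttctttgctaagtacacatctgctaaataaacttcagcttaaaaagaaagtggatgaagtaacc
The Lamb1 stretch holds 2 GC boxes and the Lamb2 stretch holds 0; of 32851 RefSeq promoter windows, 23.1% held at least 1 in their first 191 bases and 13.3% in their first 124. G and C make up 63.9% of the Lamb1 stretch, against a median of 51.3% over windows of that length. They make up 37.9% of the Lamb2 stretch, against a median of 50.8%. The Runx motif TGTGGT was found on neither strand of either stretch, and 11.1% and 7.33% of windows of these lengths held it.

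Laminin alpha chain counts came mostly from 3 genes, and none of the 3 passed the test. Lama4, the alpha chain of vessel and nerve laminins, stood at 3.97, 13.1, 4.70 and 13.6 CPM in the Sst libraries and at 21.3, 17.6, 27.4 and 15.2 CPM in the Trpv1 libraries. The groups did not overlap, but the difference missed the threshold (log2 fold change −1.20, SE 0.544, adjusted p = 0.210 in edgeR). Lama2, the alpha chain of muscle and Schwann cell laminin, had means of 11.6 ± 6.88 and 12.0 ± 9.83 CPM (log2 fold change −0.09). Lama3, an alpha chain of epithelial laminin, stood at 8.92, 0.760, 45.2 and 2.98 CPM in the Sst libraries. In the Trpv1 libraries Lama3 stood between 3.49 and 10.2 CPM. Its higher Sst mean came from replicate 3: the fitted log2 fold change was 1.38, and −0.39 without that library. Per kilobase, Lama4 took the largest share of the alpha chain level in 4 of 4 Trpv1 libraries (45.2% to 71.4%). Among the Sst libraries the largest share was that of Lama3 in replicates 1 and 3 (50.6% and 83.3%), of Lama2 in replicate 2 (44.2%) and of Lama4 in replicate 4 (49.9%). By longest transcript Lama4 was ahead of Lama2 in Sst replicate 2 as well (45.4% and 44.3%). Lama1 and Lama5 held 47 and 54 counts over all libraries and were not tested.

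Lamc1, the gamma chain shared by most laminins, had the highest level per kilobase of the laminin genes over all libraries, at 2.77 ± 0.311 CPM per kilobase in the Sst and 2.44 ± 1.11 in Trpv1 libraries (SD, n = 4 each). It stood between 20.5 and 26.1 CPM in the Sst libraries and at 25.1, 30.7, 12.3 and 12.8 CPM in Trpv1 replicates 1 to 4, so the groups overlapped (log2 fold change 0.19, SE 0.449, adjusted p = 0.866 in edgeR). By longest transcript its Trpv1 mean of 2.65 CPM per kilobase was below those of Lamb1 (4.03) and Lama4 (3.37). Lamc3 held 2 counts in all and was not tested.

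**Figure D3:**
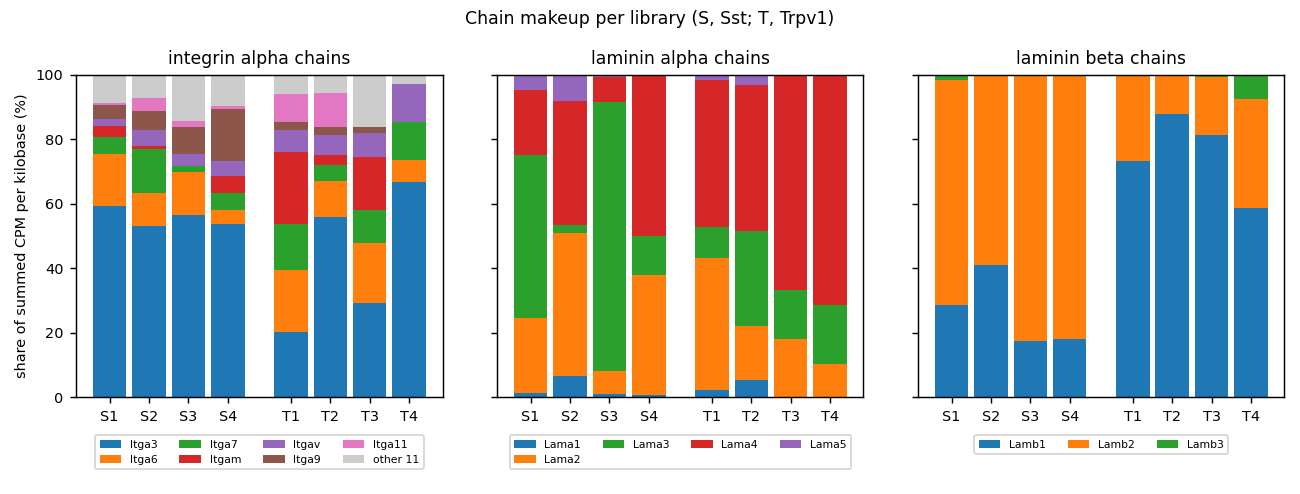
Share of the summed level (CPM per kilobase, percent) taken by each chain in each library, for integrin alpha, laminin alpha and laminin beta genes; S1 to S4 are Sst and T1 to T4 Trpv1 replicates, and each bar adds to all chains of its class. In the panel of laminin beta chains, Lamb2 takes 59.1% to 82.7% in the Sst bars and 12.2% to 34.0% in the Trpv1 bars by merged exon length, which is plotted; by longest transcript it takes 47.6% in Sst replicate 2.

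Among the receptors, the alpha chains that pair with beta 1 to bind laminin included the most abundant alpha chain, Itga3, and none of them passed the test. Itga3 (chromosome 11, 95044474 to 95076801, minus strand), a laminin receptor chain, had the highest alpha level per kilobase at 11.8 ± 1.11 CPM per kilobase in the Sst and 6.53 ± 4.75 in the Trpv1 libraries. It stood at 73.9, 63.8, 71.7 and 60.5 CPM in Sst replicates 1 to 4. In Trpv1 replicates 1 to 4 it stood at 19.8, 73.2, 13.3 and 42.9 CPM. The Sst values lay close together, while the Trpv1 values spread over a wide range, with replicate 2 at the level of the Sst libraries. The difference missed the threshold (log2 fold change 0.87, SE 0.396, adjusted p = 0.214 in edgeR) and passed it without Trpv1 replicate 2 (1.42, adjusted p = 0.0473 in edgeR). Itga3 took 53.2% to 59.2% of the alpha chain level per kilobase in the Sst and 20.3% to 66.7% in the Trpv1 libraries. Its first place holds for the means, and in Trpv1 replicate 1 Itgam took more, at 22.2% against 20.3%. Itga6 and Itga7, the other laminin-binding alpha chains, had means of 21.2 ± 10.6 and 11.2 ± 8.46 CPM in the Sst libraries. Their Trpv1 means were 18.1 ± 9.99 and 11.6 ± 5.74 CPM, and neither passed (log2 fold changes 0.22 and −0.13).

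Itga9 and Itga4 are a pair of related alpha chains that bind the vascular adhesion protein VCAM-1, osteopontin and variants of fibronectin, and both had their highest values in the Sst libraries. Itga9 (chromosome 9, 118606690 to 118901003, plus strand) was measured at 7.24, 9.98, 13.9 and 24.3 CPM in Sst replicates 1 to 4. It stood at 3.30, 4.46, 1.14 and 0.106 CPM in Trpv1 replicates 1 to 4, the last being 1 count. All Sst values were above all Trpv1 values, and Itga9 was 6.34-fold higher in the Sst libraries (log2 fold change 2.66, SE 0.774, adjusted p = 0.0365 in edgeR). It passed in 8 of 19 alternatives and was higher in the Sst libraries in all 19. Leaving out Sst replicate 3, Sst replicate 4, or 1 of Trpv1 replicates 1, 3 and 4 ended the call (edgeR adjusted p from 0.0686 to 0.116, log2 fold changes from 2.24 to 2.98).

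Itga4 (chromosome 2, 79255426 to 79333123, plus strand) was measured at 12.3, 12.3, 14.7 and 9.75 CPM in the Sst libraries. In the Trpv1 libraries Itga4 stood at 4.53, 4.96, 2.40 and 0.317 CPM. These groups did not overlap either, but the difference missed the threshold (log2 fold change 2.02, SE 0.700, adjusted p = 0.0873 in edgeR). Exons of Itga4 overlap those of Cerkl on the opposite strand over 1124 bases. Cerkl held 45 counts over all libraries against 609 of Itga4, and the sources used here do not say whether counting used the strand. Of the possible ligands, Spp1 (osteopontin) was higher in the Sst libraries (values given further on), while Vcam1 had means of 5.33 ± 6.34 and 2.15 ± 3.34 CPM and Fn1 (fibronectin) 30.7 ± 21.5 and 31.1 ± 29.5 CPM, neither past the threshold.

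Itgav, the alpha chain that pairs with beta 1, 3, 5, 6 or 8, was the most abundant of the RGD-binding alpha chains per kilobase. It had means of 8.60 ± 2.68 CPM in Sst and 12.3 ± 4.13 CPM in the Trpv1 libraries and did not pass (log2 fold change −0.52, adjusted p = 0.672 in edgeR). Itga5, the fibronectin receptor chain, held 93 counts in the Sst and 3 in the Trpv1 group, a ratio of 26.3 (95% exact binomial interval 8.72 to 130). Of those 93 counts 38 and 47 lay in Sst replicates 3 and 4, and without replicate 4 it was 17.8. Itga8 held 0 counts in the Sst group and 35 in the Trpv1 group, 23 of them in replicate 2. It was at least 13.8-fold higher in the Trpv1 group, taking a floor of 3 counts over a group, and at least 6.09-fold without that library. Itga2b, the platelet chain, held 28 and 3 counts, a ratio of 7.91 (2.44 to 40.7), and of 4.73 (1.30 to 25.9) without Sst replicate 2. Itga5, Itga8 and Itga2b did not pass the filter. Their intervals and limits, like those of the other low members below, treat the pooled counts of a group as independent. They leave out the spread between libraries and are thus no limits on the difference between the genotypes. Reads carried no molecular identifiers, so amplified copies were counted as separate.

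Collagen-binding alpha chains were low and did not pass. Itga11 had the highest level per kilobase among them and stood at 0.694 to 4.01 CPM in the Sst libraries. It stood at 7.62 and 12.3 CPM in Trpv1 replicates 1 and 2 and had 0 counts in replicates 3 and 4 (log2 fold change −1.40, adjusted p = 0.445 in edgeR). Its high and absent values thus divided the Trpv1 libraries the same way as the counts of Xist. Itga1 and Itga2 had log2 fold changes of −1.35 and −0.18. Itga10 held 18 counts in the Sst group, 16 of them in replicate 3, and 0 in the Trpv1 group, at least 5.09-fold more in the Sst group; without replicate 3, 2 counts were left, which gives no fold.

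Among the alpha chains of leukocytes, Itgam, the chain of macrophages and neutrophils, was the most abundant per kilobase. It stood at 3.87, 0.977, 0 and 5.42 CPM in the Sst libraries and at 19.0, 3.44, 6.57 and 0 CPM among Trpv1 libraries (log2 fold change −1.51, adjusted p = 0.372 in edgeR). Exons of Itgam overlap those of Gm49368 on the same strand over 3450 bases. Gm49368 has no row of its own in the counts, so reads of that stretch could come from either gene. Itga1 and Itga10 have such overlaps with Gm49395 and Gm42957, over 685 and 1739 bases. Of 14 other markers of macrophages and leukocytes 2 were tested and 0 called, where 6.35% of all genes tested were called. Lyz2 stood at 12.8 CPM in Trpv1 replicate 1, where Itgam was highest, Ptprc at 23.6 CPM in Trpv1 replicate 2, and Mrc1 was without overlap, at 0 to 1.09 CPM in the Sst and 1.89 to 4.20 CPM among Trpv1 libraries (log2 fold change −2.31, adjusted p = 0.150 in edgeR). Other markers, all low and not tested, went the other way. Fcer1g, Cx3cr1, C1qc and Tyrobp had means of 0.523, 0.648, 0.276 and 0.790 CPM in the Sst libraries. Their Trpv1 means were 0, 0.0515, 0.0773 and 0.682 CPM. C1qa and Cd3e had 0 counts in all 8 libraries, and the list summed to 5.26 to 10.5 CPM in Sst and 10.5 to 30.2 CPM in the Trpv1 libraries. Their part in the values of Itgam was not tested. Itgb2, the beta chain with which Itgam pairs, held 2 counts in the Sst and 13 in the Trpv1 group. Itgal, Itgax and Itgae held 2, 36 and 60 counts in all. Itgad and Itgb7 had 0 counts in all 8 libraries, which allows up to 0.0393 CPM over the 76268655 counts of the series.

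Itgb1, the common partner of the laminin-, collagen- and fibronectin-binding alpha chains, was the most abundant member per kilobase in both groups. Its level was 36.6 ± 6.07 CPM per kilobase in the Sst and 55.8 ± 7.26 in Trpv1 libraries (SD, n = 4 each), 85.4% to 94.2% of the summed beta chain level in each library. Itgb1 (chromosome 8, 128685654 to 128733200, plus strand) was measured at 134, 176, 163 and 123 CPM in Sst replicates 1 to 4. It stood at 194, 214, 239 and 262 CPM in Trpv1 replicates 1 to 4. The groups did not overlap, and the difference was small and missed the threshold (log2 fold change −0.61, SE 0.223, adjusted p = 0.107 in edgeR). DESeq2 called it (−0.62, adjusted p = 0.0361).

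Itgb8, the beta chain that pairs with alpha V and is known for releasing active TGF-beta from its latent complex, was lower in the Sst libraries. Itgb8 (chromosome 12, 119158022 to 119238802, minus strand) stood at 14.8, 9.22, 16.1 and 26.8 CPM in Sst replicates 1 to 4. It stood at 57.0, 73.8, 44.6 and 23.7 CPM in Trpv1 replicates 1 to 4. The groups overlapped at Sst replicate 4 and Trpv1 replicate 4, and the other libraries lay apart. Itgb8 was 2.92-fold higher in Trpv1 libraries (log2 fold change −1.55, SE 0.436, adjusted p = 0.0330 in edgeR) and passed in 8 of 19 alternatives. Leaving out any 1 of replicates 1, 2 and 3 of either group ended the call (edgeR adjusted p from 0.0650 to 0.133). Trpv1 replicates 1 and 2, which had no Xist counts, held the highest values of Itgb8. With a term for Xist the log2 fold change was −0.99 (adjusted p = 0.337 in edgeR), and in the 6 libraries with Xist it was −0.97 (0.403). In the 4 libraries with at most 1 count of Gh and of Prl (3 Sst and 1 Trpv1), it was −0.25 (0.885). In those same 3 fits Lamb1 stood between −1.80 and −1.73 (edgeR adjusted p from 0.121 to 0.492). The log2 fold change of Itga9 ran from 4.58 to 7.06 in them (edgeR adjusted p from 0.0575 to 0.361), where Trpv1 replicates 3 and 4 held 9 and 1 counts.

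The remaining beta chains were low or variable. Itgb3, a partner of alpha V and of the platelet chain, stood at 0.451 to 12.6 CPM in Sst and 3.54 to 20.5 CPM among Trpv1 libraries (log2 fold change −0.88, adjusted p = 0.559 in edgeR). Itgb4, the partner of alpha 6 in epithelia and Schwann cells, stood at 0.595, 1.95, 0.461 and 9.93 CPM in the Sst libraries and 0.211 to 4.74 CPM in the Trpv1 libraries. Its fitted log2 fold change of 0.94 turned to −0.84 without Sst replicate 4. Itgb6 held 30 counts in the Sst and 0 in the Trpv1 group, at least 8.48-fold more, and at least 3.83-fold without Sst replicate 3, which held 20 of them. Itgb5 held 33 and 15 counts. Itgbl1 held 3 counts in the Sst group and 52 in the Trpv1 group, with counts in 4 of 4 Trpv1 libraries, a ratio of 20.4 (95% exact binomial interval 6.62 to 102), and of 13.2 (4.05 to 68.2) without Trpv1 replicate 3. Itgb2l held 2 counts.

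In total 19 members did not pass the filter, 17 of them with counts, and the highest of these was Itga5 at a mean of 1.11 CPM over the 8 libraries. Without the filter, 37 members were tested and Itga9 and Itgb8 were called, so that none of the low members passed. Summed per kilobase, the 18 integrin alpha genes stood at 21.2 ± 1.14 in the Sst and 14.8 ± 6.63 CPM per kilobase in the Trpv1 libraries. The 8 integrin beta genes stood at 39.9 ± 5.66 and 62.5 ± 5.98 CPM per kilobase, nearly all of it Itgb1.

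**Figure D4:**
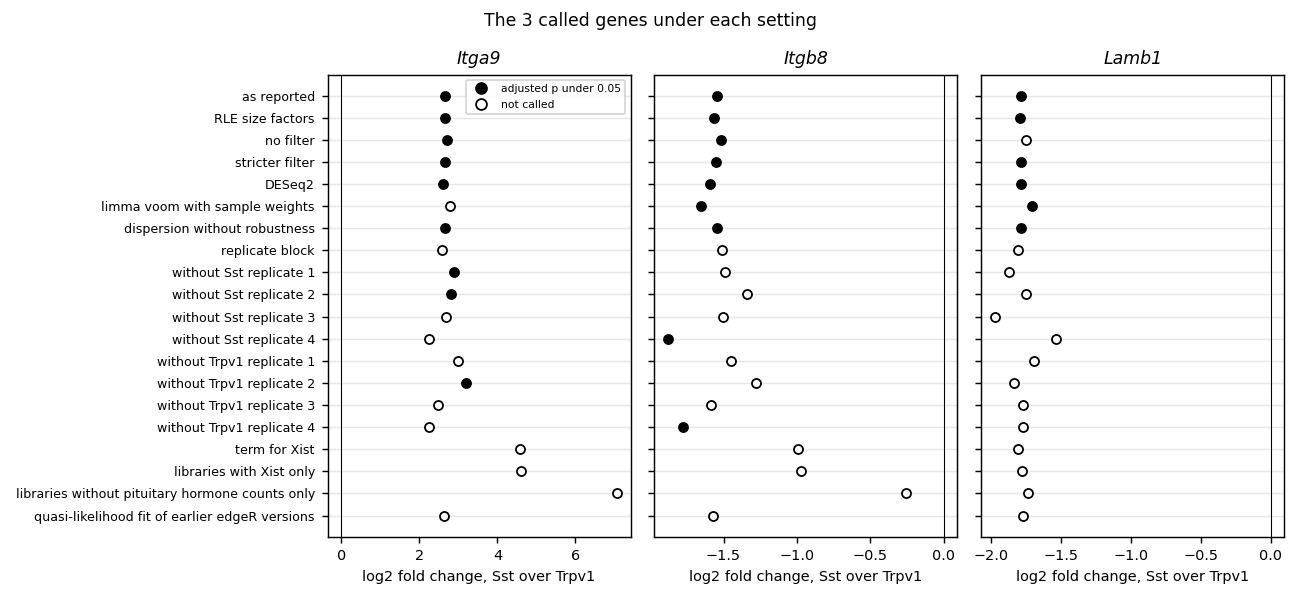
Log2 fold change, Sst over Trpv1, of Itga9, Itgb8 and Lamb1 in the analysis as reported and in each of 19 alternatives; filled points passed an adjusted p of 0.05. Every point of a gene lies on 1 side of 0; Itga9 and Itgb8 are filled in 8 alternatives each and Lamb1 in 5.

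Most listed genes that act with integrins at the membrane or inside the cell did not pass the test, and 5 did. This list and those of matrix ligands and laminin receptors below were chosen with earlier results of these data known. Their shares of called genes are thus description only. Of 44 listed activators and adaptors 37 were tested, with 1 called higher in Sst, 4 called lower and 32 not called (13.5% called, against 6.35% of all genes), with a median log2 fold change of −0.22. Tns1, a tensin that ties beta chain tails to actin, stood at 405, 397, 432 and 499 CPM in the Sst libraries and 144 to 227 CPM among Trpv1 libraries (log2 fold change 1.35, SE 0.211, adjusted p = 0.000176 in edgeR). Cd9, a tetraspanin that associates with beta 1 integrins, stood at 40.5 to 77.8 CPM in the Sst libraries and 162 to 207 CPM among Trpv1 libraries (log2 fold change −1.83, SE 0.271, adjusted p = 8.52e-05 in edgeR). Neither gene's groups overlapped. Rap1b, a small GTPase that drives integrin activation, had means of 32.3 ± 5.41 and 81.0 ± 20.3 CPM (log2 fold change −1.32, adjusted p = 0.0139 in edgeR). Ptk2b, a kinase related to focal adhesion kinase, had means of 1.52 ± 2.80 and 13.8 ± 8.79 CPM, and Cib1, which binds the platelet alpha chain, 0.559 ± 0.750 and 7.64 ± 8.03 CPM (log2 fold changes −3.09 and −3.76, edgeR adjusted p = 0.0404 and 0.0420). Without any 1 of Sst replicates 1 to 4 or Trpv1 replicates 1 and 2, 2 or 3 genes of the list were called in place of 5.

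Other matrix ligands went both ways. Of 43 listed 26 were tested, of which 1 was higher, 3 were lower and 22 did not pass (15.4% called, against 6.35% of all genes), with a median log2 fold change of −0.59. Spp1, a ligand of Itga9, Itga4 and alpha V integrins and itself known from large sensory neurons, stood at 32.7, 18.4, 56.6 and 23.7 CPM in the Sst libraries and at 2.78, 4.96, 1.39 and 0 CPM among Trpv1 libraries (log2 fold change 3.90, SE 0.697, adjusted p = 0.000603 in edgeR). Tnr, which encodes the matrix protein tenascin-R, had means of 171 ± 50.6 and 497 ± 172 CPM (log2 fold change −1.53, adjusted p = 0.000307 in edgeR). Col6a2, a collagen VI chain, had means of 1.32 ± 0.578 and 17.0 ± 7.56 CPM. Nov, a matrix signalling protein, had means of 2.50 ± 4.42 and 22.6 ± 3.33 CPM. Spp1, Tnr, Col6a2 and Nov had groups that did not overlap.

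Laminin receptors that are not integrins include dystroglycan, its complex and Bcam. Of 26 listed genes 23 were tested, of which 2 were higher, 1 was lower and 20 did not pass (13% called, against 6.35% of all genes), with a median log2 fold change of 0.12. Bcam, a receptor for laminin alpha 5, had means of 171 ± 50.7 and 76.0 ± 33.1 CPM (log2 fold change 1.15, adjusted p = 0.0268 in edgeR). Dmd, which encodes dystrophin, had means of 40.2 ± 10.9 and 91.9 ± 40.9 CPM (log2 fold change −1.19, adjusted p = 0.0459 in edgeR). The values of Bcam and Dmd overlapped between the groups. Dag1, dystroglycan itself, had means of 73.0 ± 17.8 and 56.5 ± 24.1 CPM and did not pass (adjusted p = 0.610 in edgeR). With Sst replicate 1 or 3 left out, or with Trpv1 replicate 2 left out, 0 genes of the list were called; 1 was called without Sst replicate 2 or Trpv1 replicates 1, 3 or 4.

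Markers of neuron classes moved with the groups, and their part in the differences above was not tested. Of all genes tested, 3.04% were called higher in the Sst libraries and 3.31% lower. Of 9 markers of myelinated sensory neurons 8 were higher in the Sst libraries, with a summed level of 4246 to 7553 CPM against 2140 to 3174 CPM, and Runx3 had 0 counts in the Trpv1 group. All 6 peptidergic markers were lower, with sums of 42.8 to 122 against 1893 to 2592 CPM. Of 10 general neuronal markers, all tested, Snap25 was higher, Scn9a lower and 8 not called, with a median log2 fold change of −0.15. Their sums were 6155 to 6736 CPM in the Sst and 4477 to 5095 CPM in the Trpv1 libraries. The higher Sst sums came from Snap25, which alone stood at 3631 to 4446 and 1701 to 2280 CPM.

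Laminins and several integrins are also made by glia, vessels and fibroblasts, and transcripts of those cells were present in both groups. Of all genes tested 6.35% were called, so 0 calls among a few markers do not show equal levels. Of 9 tested satellite glia markers 0 were called in edgeR, with sums of 436 to 832 CPM in Sst and 325 to 630 CPM in the Trpv1 libraries. No listed marker was at 0 over a whole group, and Slc1a3 had 0 counts in Sst replicates 3 and 4. Of 7 tested Schwann cell markers S100b was higher, a gene that large neurons also express, with sums of 577 to 754 and 624 to 894 CPM. Of 8 tested markers of fibroblasts and mural cells Rgs5 was higher and Notch3 lower, with sums of 429 to 812 against 263 to 376 CPM. Without Rgs5 the other 11 summed to 40.2 to 101 CPM in the Sst and 50.8 to 177 CPM in the Trpv1 libraries, and Kcnj8 had 1 count in the Sst and 0 in the Trpv1 group. Endothelial markers summed to 8.86 to 75.4 and 13.9 to 48.2 CPM with 0 of 5 called. Blood cell markers summed to 8.35 to 26.6 and 4.67 to 17.3 CPM with 0 of 3 called, and the platelet genes Ppbp and Gp9 were at 0 in all libraries. Pituitary markers summed to 0.0903 to 461 and 0 to 1762 CPM with 0 of 4 called. The part of these cells in the levels of laminin and integrin genes was not tested.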

How the data were processed

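The authors deposited raw counts, whole numbers per gene symbol with 1 column for each sample. Per the submitters' processing notes, bcl2fastq 2.17, Trimmomatic 0.33 and featureCounts were used with build GRCm38; the aligner, annotation, strand setting and treatment of multiple matches were not given in the sources used here. Per the labels' protocols, cDNA of the picked cells was amplified before libraries were made, and each picking session held 1 sample of each genotype; the labels do not tie replicate numbers to sessions.

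Counts were scaled by TMM and filtered with edgeR's expression filter (minimum count 10), which left 11828 genes. The groups were compared in edgeR 4.0.16 under R 4.3.3 with robust quasi-likelihood F tests in their current form, two-sided, with group as sole term. Benjamini-Hochberg adjustment covered all of these genes (threshold 0.05), and SE was derived from the fold change and F. Exon lengths and positions came from GENCODE M21. The biological coefficient of variation was 69.1%, and libraries of a group differed by more than counting error. In simulated counts for the Sst against Trpv1 comparison (11828 genes), 9% of 100 genes with a 2-fold change and 52% of 100 with a 4-fold change were recovered, and 4 of 65 calls were false.

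Members and lists were chosen with earlier results of these data known. The naming rule took each called member, the most abundant member per kilobase of each role group, members without overlap, and up to 4 called genes with the smallest p of each pathway list, where their values are reported here; Cib1, Vcam1, Fn1, Dag1, the ratio of Lamb2 to Lamb1 and the values of further members were added after they were seen. Tns2, Adgrg6 and Adgre1 are listed in the table as Tenc1, Gpr126 and Emr1, matched through RefSeq. Values of some genes are not reported. Alternatives were RLE factors, no filter, CPM of 5 or more in 4 libraries, DESeq2 1.42.0, limma 3.58.1 voom with sample weights, no robustness, a replicate block, each library left out, a term for Xist, the 6 libraries with Xist, the 4 with at most 1 count of Gh and of Prl, the longest transcript as gene length and, chosen after seeing the data, low members without the library holding most of their counts and the quasi-likelihood fit of earlier edgeR versions.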

Additional observations from a re-analysis of the deposited data

Results flagged for a closer look

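Itgb4 stood at 9.93 CPM in Sst replicate 4, far from the other Sst libraries, of which the next highest was at 1.95 CPM. The gap was 0.842 of the group's range, above the critical value of 0.829 for 4 samples. Of 40 groups of 4 libraries examined (20 tested members in each genotype) this was the 1 value set apart. Chance alone sets a value apart in about 1 in 20 groups, so 1 among 40 is no more than chance gives.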

How the results depend on the processing

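With 4 amplified libraries per group and most members under 30 CPM, 2-fold changes were seldom detectable. Fits on fewer libraries have less power, but the cause of the changed calls was not tested. Over 19 alternatives 12 of 20 members kept their sign in each fit that tested them, and 8 did not. Genes called numbered 751 as reported, 1204 in DESeq2, 435 with a term for Xist, 305 in the libraries with Xist, 52 in those without pituitary transcripts, 493 in the earlier edgeR fit and 452 to 747 with 1 library left out. Members called higher numbered 0 with voom, the replicate block, the Xist term, the Xist libraries and the earlier edgeR fit. With 1 library left out they numbered 0 to 2. Members called lower numbered 1 without a filter and 0 with the replicate block, the Xist term, the Xist libraries and the earlier edgeR fit. With 1 library left out they numbered 0 to 1. Called activators and adaptors numbered 3 with voom, the Xist term and the Xist libraries, and 2 to 4 with 1 library left out. Called matrix ligands numbered 3 with the Xist term and the Xist libraries, and 3 to 6 with 1 library left out. Called laminin receptors numbered 1 with the replicate block, the Xist term and the Xist libraries, and 0 in the earlier edgeR fit. With 1 library left out they numbered 0 to 2.

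No pairing by replicate number was seen: same-numbered libraries correlated at −0.03 to 0.03, and 2 of 8 libraries correlated best with their own number. Every correlation across the groups lay between −0.04 and 0.05. The check thus found no pairs in any order and cannot tell whether the numbers mark the picking sessions. With the replicate block 572 genes were called, and Itga9 (2.59), Itgb8 (−1.51) and Lamb1 (−1.81) had edgeR adjusted p of 0.0759, 0.0944 and 0.0730.

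The log2 fold changes that turned, none of them called, were as follows. With voom Itga11 was 0.48, Itga2 0.90 and Itgb4 −0.15. With the Xist term Itga11 was 7.15, Itga7 0.31 and Lama2 0.88, and in the Xist libraries 7.19, 0.33 and 0.90. In the 4 libraries with at most 1 count of Gh and of Prl, Itga11 was 6.68, Itga2 3.78, Itgam 8.02 and Lama2 1.60. Itga11 and Itgam had 0 counts on the Trpv1 side there, and Itga11 also among the Trpv1 libraries with Xist. These values of Itga11 and Itgam thus measure no size. With the replicate block Lama2 was 0.017. With 1 library left out, the values that turned were Itga2 without Sst replicate 3 or Trpv1 replicate 3 (range over the 8 fits −0.60 to 1.07), Itga6 without Sst replicate 1 or Trpv1 replicate 4 (−0.053 to 0.60), Itga7 without Sst replicate 3 or Trpv1 replicate 1 (−0.73 to 0.29), Itgb4 without Sst replicate 4 (−0.84 to 2.49), Lama2 without Sst replicates 1 or 3 or Trpv1 replicate 1 (−0.46 to 0.71) and Lama3 without Sst replicate 3 (−0.39 to 1.79). With the longest transcript as gene length, Itgb1 stayed first at 49.4 CPM per kilobase, Itga6 moved from rank 5 to 3 and Itgb8 from 3 to 4, and Lamb1 was ahead of Lamb2 in Sst replicate 2.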
